A study of Homo sapiens with 20 samples.

Results

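The response of exon inclusion to loss of FUBP1 was examined in HepG2, a human liver cancer cell line with hepatocyte features. Cells received an siRNA against FUBP1 (siFUBP1) or a control siRNA (siCtrl2), were harvested after 48 h, and gave 3 libraries of polyadenylated RNA per group. These are 6 of the 20 samples of the series. Control levels and exon classes are also given from 2 other depletions of the series, U3 ASO against GFP ASO (antisense oligonucleotides, 3 libraries each, harvested after 72 h) and the input libraries of siFBL against siCtrl (2 libraries each, 48 h). The study lists a single siRNA product for FUBP1, so an effect of that siRNA on other targets and an effect of FUBP1 loss cannot be told apart. The table for this comparison lists 19792 skipped exon events, of 59847 in the 3 splicing tables of the series. An event is 1 exon together with the exon before and the exon after it, and each library has a number of reads across the 2 junctions that include the exon and a number across the junction that skips it. The events described here were the 16213 that averaged 10 or more junction reads over the 6 libraries. They covered 14722 distinct exons of 6266 genes, and the other 3579 events fell under that minimum. Just inside it, 325 events averaged 10 to under 11 reads with a mean inclusion level of 0.688, and just outside it 302 events averaged 9 to under 10 reads with 0.674.

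FUBP1 is a nuclear protein with KH domains that binds single-stranded DNA and U-rich RNA, and it takes part in the recognition of splice sites. Before an exon is joined, the 3′ end of the intron in front of it is read by the splicing machinery through a branch site, a run of pyrimidines and a closing AG, and the 5′ end of the next intron through a GU read by U1. When either end is passed over, the exon is skipped. Inclusion of an exon whose length is a multiple of 3 adds or removes amino acids without shifting the reading frame, while skipping of other coding exons shifts it. Exons flanked by long introns and exons of very few bases have less sequence close by that marks them, and their inclusion often depends on added factors.

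The siCtrl2 libraries held 2896651 to 4474350 junction reads and the siFUBP1 libraries 2693397 to 3561421, with a median of 48 to 83 reads per tested event. Libraries of a group lay about equally far apart. Over 2085 events with a well-measured inclusion level, the median distance of a library from the other libraries of its group was 0.0589 to 0.0646 on the 0 to 1 scale of the inclusion level. Hepatocyte markers had events in 12 of 14 genes and took 108139 to 116233 of each 1000000 junction reads, while 0 of 5 fibroblast and 0 of 4 endothelial markers had an event. Of 5 leukocyte markers, LYZ alone had one, with 6526 to 7861 of each 1000000 junction reads. A gene without a skipped exon event can still be expressed, so these counts do not measure other cell types. The study describes the libraries as biological replicates, and the labels name no batch.

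FUBP1 itself has 1 event in the table, a 63-base coding exon that is rarely included (chromosome 1, 77969022 to 77969084, minus strand, hg38). Reads across its skipping junction, which join the neighbouring FUBP1 exons, numbered 123, 250 and 153 in the siCtrl2 libraries and 28, 32 and 11 in the siFUBP1 libraries. Together with 8, 1 and 0 inclusion reads against 2, 0 and 0, this left 14.9% of the control level relative to all junction reads. The groups did not overlap (two-sided exact permutation test over libraries, p = 0.1, which is the lowest value possible with 3 libraries per group).

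The inclusion level was taken as the share of inclusion reads after each form was scaled to its effective length, from 0 (always skipped) to 1 (always included), and the change as the siFUBP1 mean minus the siCtrl2 mean. Each event was tested with a quasi-binomial F test on its reads, in which the spread between libraries was moderated with limma, and p-values were adjusted over all 16213 events (Benjamini-Hochberg). At an adjusted p under 0.1, 32 events were called (0.197% of those tested), 25 with lower inclusion (0.154%) and 7 with higher inclusion (0.0432%) after siFUBP1. They lie in 30 distinct exons of 25 genes. The moderated spread was the same for events of like depth and level, so that an event's own spread between libraries had no weight. When an event's own spread was used where it was larger, 26 events were called, 19 lower and 7 higher. The 6 that were lost are events of LSM14A, AFP (exon 8), ATF2, ALB, HNRNPA2B1 and MFF (exon 2). Of all tested events, 744 (4.59%) had an unadjusted p under 0.05, 456 of them lower and 288 higher. Groups did not overlap at 862 events (5.32%), and at 29 of the 32 called events.

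**Figure D1:**
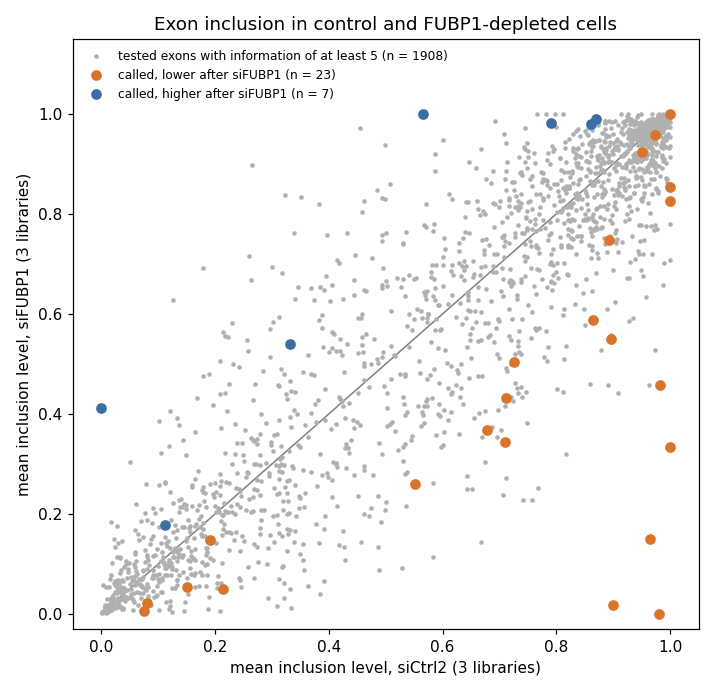
Mean inclusion level in siCtrl2 (x axis) and siFUBP1 (y axis), 0 to 1, 3 libraries each, for 1908 tested exons with a well-measured level (gray) and the 30 called exons. The 23 called exons with lower inclusion lie below the diagonal and the 7 with higher inclusion above it.

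The 3′ splice sites of the 12 exons that were called in every fit without 1 library are shown here, a set chosen after the values were seen, since the later comparison of exon classes concerns the intron end before the exon. Each line gives the last 20 bases of the intron before the exon in lower case, followed by the first 3 exon bases in capitals, written as DNA on the transcript strand, 5′ to 3′ (hg38). The 7 exons that were included less after siFUBP1 come first, then the 5 that were included more.
FLNA, chrX:154357272-154357294, minus strand: tctctgccctctcacctcagTGT
CTTN, chr11:70421450-70421472, plus strand: cgttgcttgtggattttcagATT
RAB4A exon 3, chr1:229288709-229288731, plus strand: ttcttgtttttcttttttagTCA
ACSL4, chrX:109696194-109696216, minus strand: aatgctgtctcttactgcagATT
ZNF207, chr17:32366645-32366667, plus strand: tcctttcttttatgctacagATG
RAB4A exon 2, chr1:229286466-229286488, plus strand: agtctctttttatctttcagATT
PPP3CB, chr10:73439899-73439921, minus strand: ctctgctcacttctgtacagCCA
FN1, chr2:215393201-215393223, minus strand: tttgctttgtaactcaatagAGG
ASGR1, chr17:7177324-7177346, minus strand: gacaccccctcctcttgcagGGC
CNN2, 117 bases, chr19:1036110-1036132, plus strand: ggcccctttccctcacccagGCC
CNN2, 180 bases, chr19:1036047-1036069, plus strand: ggtctctgtcccgcccccagGGC
CEACAM1, chr19:42511626-42511648, minus strand: agtttctgatatttatttagGGC
The intron ends before both RAB4A exons hold long runs of T, and those before ASGR1 and both CNN2 forms are built mainly from C. FLNA, PPP3CB and ACSL4 were included less without a long run of T in these 20 bases, and FN1 and CEACAM1 were included more after T-rich ends. Over the last 100 intron bases, where the median of all tested exons was 35% T, 5 of the 7 losses and 1 of the 5 gains (FN1, 48%) lay above that value, with FLNA at 25% and ACSL4 at 33% below it.

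Changes at genes of the actin cytoskeleton and of adhesion went both ways. FLNA encodes filamin A, which cross-links actin filaments. Its called exon of 24 bases is exon 30 of the canonical transcript (chromosome X, 154357251 to 154357274, minus strand, hg38) and is short enough to print whole, in capitals as exon sequence: TGTCAATCGGAGGTCACGGGCTAG. The exon was included at 0.691, 0.670 and 0.766 in the siCtrl2 libraries and at 0.321, 0.358 and 0.352 in the siFUBP1 libraries, a change of -0.366 (adjusted p = 2.1e-11). The lowest control library was thus well above the highest siFUBP1 library. CTTN encodes cortactin, which stabilises branched actin, and its exon 11 of 111 bases went from 0.974, 0.830 and 0.885 to 0.553, 0.523 and 0.573 (adjusted p = 1.7e-06). Its 5′ splice site, AAGgcacag with the exon in capitals, opens with GC in place of GT and scored lower than all but 0.292% of tested exons against the base frequencies at their 5′ splice sites. CNN2, an actin-binding calponin, moved the other way. Exon 5 of 117 bases was included at 0.938, 0.858 and 0.810 in siCtrl2 and at 0.998, 0.988 and 0.985 in siFUBP1 (adjusted p = 4.2e-05). A longer form of the same exon, 180 bases from an earlier 3′ splice site, was called too, but its event shares the skipping reads of the first, which numbered 15, 82 and 68 in siCtrl2 and 1, 5 and 6 in siFUBP1.

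The other adhesion genes with a call also rose. FN1 encodes fibronectin of the extracellular matrix, and its exon 25 of 273 bases (chromosome 2, 215392931 to 215393203, minus strand) encodes the alternative extra domain B. Inclusion was 0.112, 0.124 and 0.0976 in siCtrl2 and 0.173, 0.174 and 0.184 in siFUBP1, which is 0.0659 higher (adjusted p = 3.3e-10, 4524 reads per library). CEACAM1 is an adhesion receptor whose exon 7 of 53 bases decides between a long and a short cytoplasmic tail. Inclusion of this exon went from 0.296, 0.368 and 0.328 to 0.506, 0.595 and 0.520, a change of 0.21 (adjusted p = 0.000536), so that every siFUBP1 library was above every control library. Of 192 tested events in 48 cytoskeleton and adhesion genes of a list, which does not hold FN1 or CEACAM1, 2 were called lower and 2 higher (2.08%, against 0.197% of all events), and these are the FLNA, CTTN and CNN2 events above. The 2 higher ones are the CNN2 forms that share skipping reads. All gene lists here were drawn up with earlier results of these data known, so such shares are a description only. The smallest p without a call in this list was at EPB41L2, which links membranes to the cytoskeleton, with levels of 0.154, 0.231 and 0.110 against 0.0200, 0.0587 and 0.0835 at exon 14 (unadjusted p = 0.000298, adjusted p = 0.134).

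**Figure D2:**
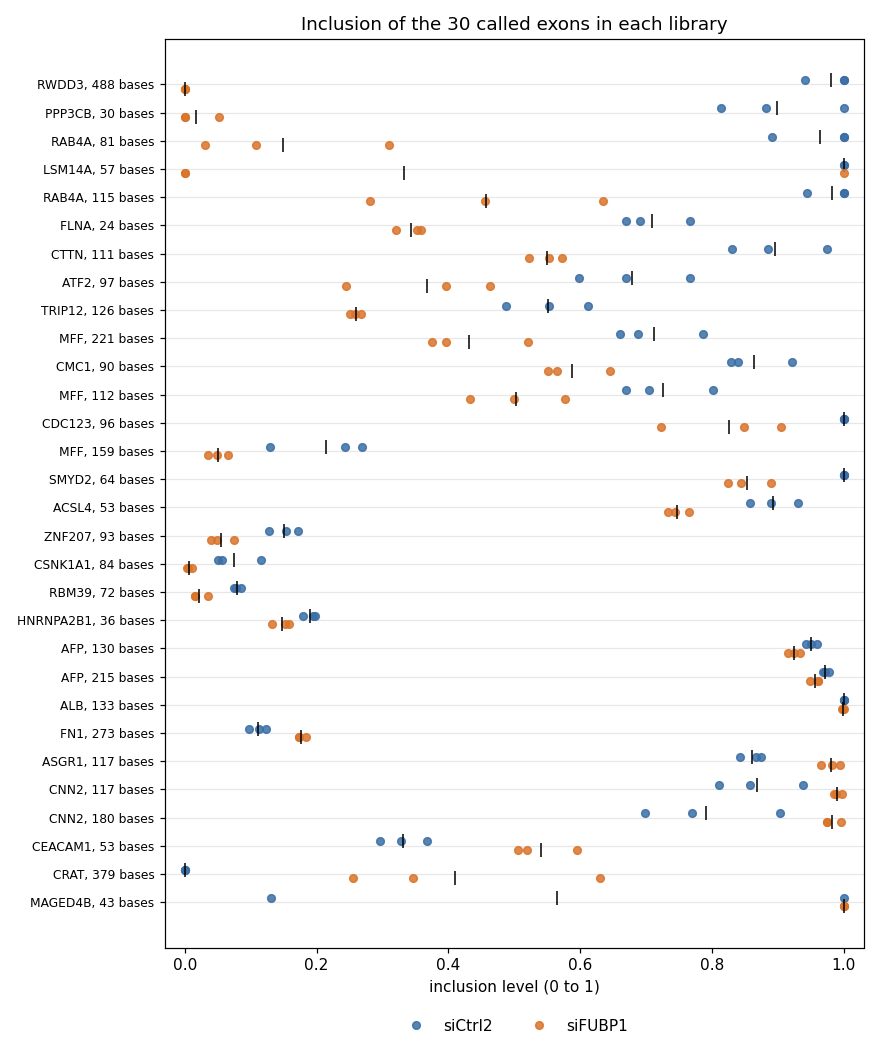
Inclusion level (x axis, 0 to 1) of the 30 called exons in each library (points) with the mean of each group (black ticks), ordered from the largest loss at the top to the largest gain at the bottom. Groups overlap at MAGED4B, LSM14A and ALB, and libraries without reads at an exon have no point.

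Events of RAB4A, PPP3CB and RWDD3 had the largest losses in inclusion level among the calls. RAB4A is a small GTPase of the recycling endosome, and its exons 2 and 3 (81 and 115 bases) lie 7004 to 17358 bases from the exons 1 and 4 that flank them in these events. Exon 2 was included at 1, 0.891 and 1 in siCtrl2 and at 0.0304, 0.108 and 0.310 in siFUBP1 (adjusted p = 0.000536). Exon 3 went from 1, 0.945 and 1 to 0.281, 0.455 and 0.635 (adjusted p = 9.3e-05). Both events count the same reads that join exon 1 directly to exon 4, which numbered 0, 3 and 0 in siCtrl2 and 62, 48 and 13 in siFUBP1, so they are not independent of each other. At both exons the event with the most reads was another one, which was not called, so these levels hold for the named events only. In the GFP ASO libraries of the series, controls of another depletion, the same events had lower means of 0.474 and 0.789 than in siCtrl2. PPP3CB encodes a catalytic subunit of calcineurin, and its exon 13 has 30 bases: CCACAGTTGAGGCTATTGAGGCTGAAAAAG. Here 21, 9 and 15 inclusion reads and 4, 1 and 0 skipping reads in siCtrl2 stood against 0, 2 and 0 inclusion and 33, 30 and 20 skipping reads in siFUBP1. This amounts to a change from 0.899 ± 0.0942 to 0.0175 ± 0.0304 (SD, n = 3 each), with the smallest read number among the calls that held in every fit without 1 library (22.5 reads per library, adjusted p = 0.00377). RWDD3, an enhancer of SUMO conjugation, went from 10, 32 and 7 inclusion reads with 0, 1 and 0 skipping reads to 0 inclusion reads with 5, 10 and 11 skipping reads. The 0 of 26 reads over the 3 siFUBP1 libraries allow an inclusion share of up to 11.5% by counting error alone, and the call (adjusted p = 0.0465) was lost in 4 of the 6 fits without 1 library.

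MFF recruits the fission machinery to the mitochondrial outer membrane, and 3 of its exons were called lower. Exon 3 of 221 bases was included at 0.787, 0.661 and 0.688 in siCtrl2 and at 0.521, 0.375 and 0.396 in siFUBP1 (adjusted p = 0.00524). Exon 2 of 112 bases, annotated as untranslated or partly coding, shared its skipping reads with exon 3 and fell by 0.222 (adjusted p = 0.0939). Exon 6 of 159 bases is a separate event further downstream and went from 0.130, 0.269 and 0.243 to 0.0662, 0.0349 and 0.0490 (adjusted p = 0.0485). The 3 siFUBP1 libraries were below all control libraries at each of these 3 events. Other events of the same exons, with other flanking exons, overlapped between the groups and were not called. A second event of exon 2 had 0.914, 1 and 0.964 in siFUBP1 against 0.939, 0.939 and 0.875 (adjusted p = 0.812), and one of exon 6 had 1, 0.415 and 0.600 against 0.905, 0.818 and 0.934 (adjusted p = 0.812). CMC1, which takes part in the assembly of respiratory complex IV, has its exon 2 of 90 bases between introns of 21478 and 52952 bases. Inclusion there went from 0.839, 0.922 and 0.829 to 0.551, 0.565 and 0.646 (adjusted p = 0.0308), and without 1 library the call was lost in 3 of 6 fits.

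Inclusion also fell at exons of TRIP12, ATF2, CDC123 and SMYD2. The ubiquitin ligase TRIP12 included exon 3 of 126 bases at 0.488, 0.612 and 0.552 in siCtrl2 and at 0.251, 0.259 and 0.268 in siFUBP1 (adjusted p = 0.0144). The transcription factor ATF2 went from 0.767, 0.598 and 0.669 to 0.397, 0.245 and 0.463 at exon 5 of 97 bases, which is no multiple of 3 (adjusted p = 0.0535). At CDC123, which helps to assemble the initiation factor eIF2, exon 5 of 96 bases had 0 skipping reads in all siCtrl2 libraries and 12, 43 and 7 in siFUBP1. SMYD2, a lysine methyltransferase, likewise had 0 skipping reads at exon 2 of 64 bases in siCtrl2 and 35, 22 and 11 in siFUBP1. The mean levels after siFUBP1 were 0.826 ± 0.0937 for CDC123 and 0.853 ± 0.0333 for SMYD2 (SD, n = 3 each). Of these 6 libraries, skipping was thus seen in the 3 siFUBP1 libraries alone. CDC123 was called in 2 and SMYD2 in 0 of the 6 fits without 1 library (adjusted p = 0.032 and 0.0535 with all libraries).

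Inclusion fell at 4 exons that were rarely included in the control, in RBM39, HNRNPA2B1, ZNF207 and CSNK1A1. RBM39 is a splicing factor related to U2AF2, and its called exon of 72 bases (chromosome 20, 35734186 to 35734257, minus strand) is annotated in transcripts that are noncoding or degraded by nonsense-mediated decay. It was included at 0.0848, 0.0782 and 0.0755 in siCtrl2 and at 0.0356, 0.0149 and 0.0157 in siFUBP1 (adjusted p = 0.00161). HNRNPA2B1, a nuclear RNA-binding protein, has a 36-base exon that marks its B1 form, which went from 0.194, 0.198 and 0.180 to 0.158, 0.152 and 0.133 at 3796 reads per library (adjusted p = 0.0939). ZNF207, a zinc finger protein of the mitotic spindle, went from 0.128, 0.172 and 0.153 to 0.0406, 0.0495 and 0.0741 at exon 9 of 93 bases (adjusted p = 0.000536). CSNK1A1, casein kinase 1 alpha, went from 0.115, 0.0569 and 0.0510 to 0.0045, 0.0107 and 0.0028 at an 84-base coding exon (adjusted p = 0.0703). At each of these 4 exons the rarer form became rarer, and the groups did not overlap. Among 30 genes of the FUBP family and 3′ splice site recognition, 73 events of 20 genes were tested, the RBM39 event was the only call, and 2.74% of events had an unadjusted p under 0.05 (4.59% of all events). Among SR proteins, hnRNPs and other regulators, 118 events of 41 genes were tested, with HNRNPA2B1 as the only call and 12 events under an unadjusted p of 0.05, 5 lower and 7 higher (10.2%). Among well-measured events the share was 18.9%, against 16.3% of all well-measured events. The strongest of these without a call was exon 7 of HNRNPD, an hnRNP that binds AU-rich RNA, with 0.563, 0.566 and 0.616 against 0.303, 0.432 and 0.563 (adjusted p = 0.274).

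Genes with liver functions carried the calls with the highest read numbers. ASGR1, the hepatocyte receptor that takes up glycoproteins ending in galactose, included exon 3 of 117 bases more often, with 70, 114 and 67 skipping reads in siCtrl2 and 4, 23 and 12 in siFUBP1. Its inclusion reads numbered 813, 1087 and 830 in siCtrl2 and were higher in siFUBP1, at 1228, 1120 and 1140 (adjusted p = 4.5e-06 for the change in inclusion). AFP, the fetal plasma protein alpha-fetoprotein, was called at exons 7 and 8 with small changes. At exon 7 the event with the most reads was another one, which was not called. The event of exon 8 with the most reads had 21, 24 and 30 skipping reads of 23401 to 33536 reads per library in siCtrl2 and 85, 60 and 53 of 18034 to 26025 in siFUBP1, a change of -0.00445 without overlap (adjusted p = 0.0363). ALB, the main plasma protein, had 0 skipping reads of exon 13 in siCtrl2 and 56, 8 and 0 in siFUBP1, and was not called when its own spread was used. ACSL4 attaches coenzyme A to polyunsaturated fatty acids, and its exon 2 of 53 bases, annotated as untranslated or partly coding, follows an intron of 36942 bases. Inclusion was 0.889, 0.931 and 0.858 in siCtrl2 and 0.733, 0.765 and 0.744 in siFUBP1 (adjusted p = 0.000122), and a second event of the exon with another downstream border fell by 0.147 (adjusted p = 0.0448). Another event of this exon, with 479 reads per library, overlapped between the groups, with 0.987, 0.916 and 0.803 against 0.846, 0.834 and 0.905 (change -0.0408, adjusted p = 0.812). The control level of the first event differed between control groups, since GFP ASO had a mean of 0.778 and siCtrl input 0.744. CRAT, which moves acetyl groups to carnitine, gained a 379-base exon known from a decay transcript, with 0 inclusion reads in siCtrl2 and 11, 17 and 18 in siFUBP1 (adjusted p = 0.0485). The 0 of 103 reads in siCtrl2 allow a share of up to 2.91%, and this call was kept in 1 of the 6 fits without 1 library.

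Of a list of liver receptors and plasma proteins, 140 events of 34 genes were tested, with 4 called lower and 2 higher, in AFP, ALB, ASGR1 and FN1 (4.29%, against 0.197% of all events). The called AFP and ALB events had 9592 to 27218 reads per library, against a median of 48 to 83 over all events. Lipid and acyl-CoA genes gave 2 calls of 123 events, both at ACSL4. Their strongest event without a call was exon 2 of HMGCS1, an enzyme of cholesterol synthesis, with 0.717, 0.761 and 0.619 against 0.508, 0.452 and 0.576 (adjusted p = 0.398). Membrane traffic (181 events), cell death, cell cycle and p53 (103 events), chromatin and transcription (156 events) and the genes that the study examined by name (55 events) gave 0 calls by the quasi-binomial test, with 10, 4, 7 and 4 events under an unadjusted p of 0.05 (5.52%, 3.88%, 4.49% and 7.27%, against 4.59% of all events). Across the 3 limma fits on the log2 odds, these lists gave 1 call, in membrane traffic. In the traffic list the smallest p without a call was at GOLGA4, a golgin, with 0.629, 0.430 and 0.328 against 0.140, 0.138 and 0.321 (adjusted p = 0.293). Over well-measured events, the median change was -0.0051 for all and -0.0431 to 0.0378 across the lists.

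A pair of calls needs separate mention because the libraries of a group did not go together. The MAGED4B event (43 bases, chromosome X) had 1, 7 and 0 inclusion and 0, 36 and 0 skipping reads in siCtrl2, against 4, 12 and 130 inclusion reads and 0 skipping reads in siFUBP1, so that 1 control library without reads and 1 with most of them set the control level. Its borders carry neither AG before nor GT after the exon on the annotated strand, and a near-identical copy of the gene lies nearby. The LSM14A event lies on an alternative contig of chromosome 19 and had 34, 28 and 0 inclusion reads in siCtrl2 with no skipping, and 0, 0 and 15 inclusion reads with 74, 2 and 0 skipping reads in siFUBP1. Both were called in 4 of the 6 fits without 1 library (LSM14A not without siCtrl2 library 1 or siFUBP1 library 1, MAGED4B not without siCtrl2 library 2 or siFUBP1 library 3).

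Some of the other calls depended on 1 library. The 12 events that were called in each of the 6 fits without 1 library are those of FLNA, FN1, CTTN, ASGR1, CNN2 (both forms), RAB4A (both exons), ACSL4 (the first event), CEACAM1, ZNF207 and PPP3CB. RBM39 was lost only without siFUBP1 library 2 (adjusted p = 0.163) and TRIP12 only without siCtrl2 library 2 (adjusted p = 0.338). MFF exon 3 was lost without siCtrl2 library 1 or siFUBP1 library 2 (adjusted p up to 0.285), AFP exon 7 and an AFP exon 8 event without siCtrl2 library 3 or siFUBP1 library 2 (up to 0.419 and 0.617), and CMC1 without siCtrl2 library 2 or siFUBP1 library 1 or 2 (up to 0.5). ATF2 was lost without siCtrl2 library 1 or 3 or siFUBP1 library 2 (up to 0.93). The remaining calls named above, at CDC123, RWDD3, CRAT, SMYD2, ALB, CSNK1A1, HNRNPA2B1, MFF exons 2 and 6, the AFP exon 8 event with the most reads and the second ACSL4 event, were lost in 4 to 6 of these fits, with adjusted p up to 0.93. Leaving out a siCtrl2 library ended 12, 13 or 10 of the 32 calls (library 1, 2 or 3), and leaving out a siFUBP1 library ended 8, 16 or 9. All kept their direction except MAGED4B, whose change was 0 without siCtrl2 library 2. FLNA, FN1, CEACAM1, ZNF207, TRIP12, MFF, ACSL4 and others were not called by any of the 3 limma fits on the log2 odds (adjusted p = 0.423 to 0.834 for FLNA), while PPP3CB and RWDD3 were called by all of them.

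The called exons were next compared with all tested exons by length, reading frame and introns. The 23 exons with lower inclusion had a median length of 96 bases and the 7 with higher inclusion 117, against 115 for all tested exons. Exons of at most 30 bases made up 2 of the 23 (8.7%), the FLNA and PPP3CB exons, against 1.48% of all tested exons and 3.04% of the 1908 exons with a well-measured level. Of 19 coding exons with lower inclusion, 11 were multiples of 3 (57.9%), as were 4 of 5 with higher inclusion, against 48.3% of all coding exons tested and 64.2% of those with a well-measured level. Frame-preserving coding exons were thus no more frequent among the losses than among well-measured exons. Skipping was annotated in GENCODE release 44 for 16 of the 23 and 6 of the 7 exons (69.6% and 85.7%), against 50.4% of all tested and 85.6% of well-measured exons.

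Intron lengths here are distances to the flanking exons of the event, which can span a further exon. MFF exon 3 is such a case, with 5198 bases across exon 2. The intron before the exon had a median of 4710 bases for losses and 1205 for gains, against 2468 for all tested exons, and was over 5 kb at 10 of 23 losses and 0 of 7 gains (31.8% of all). The intron after the exon had a median of 1843 bases for losses and 169 for gains, against 2228 for all, and was over 5 kb at 5 of 23 losses (21.7%) and 0 of 7 gains (26.8% of all). The last 100 bases of the intron before the exon had a median T content of 41% at losses and 24% at gains, against 35%. A run of TTTTT on the transcript strand was present in these 100 bases at 16 of 23 losses (69.6%) and 1 of 7 gains (14.3%), against 43.5% of all tested exons. Scored against the base frequencies of all tested 3′ splice sites, the median score was 11.3 for losses, 6.11 for gains and 9.32 for all, in log2 units.

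The same order was present in the larger set with an unadjusted p under 0.05, which is a description and not a set of calls, since 4.59% of tests reached that threshold. It held 406 exons with lower and 265 with higher inclusion. The median T content of the last 100 intron bases was 40% and 29%, TTTTT was present before 57.1% and 28.3%, and the median intron before the exon was 4071 and 1323 bases. The exon itself had a median GC content of 43.8% where inclusion was lower and 54.1% where it was higher, against 47.8% of all. Exons of at most 30 bases numbered 18 among the losses and 1 among the gains.

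**Figure D3:**
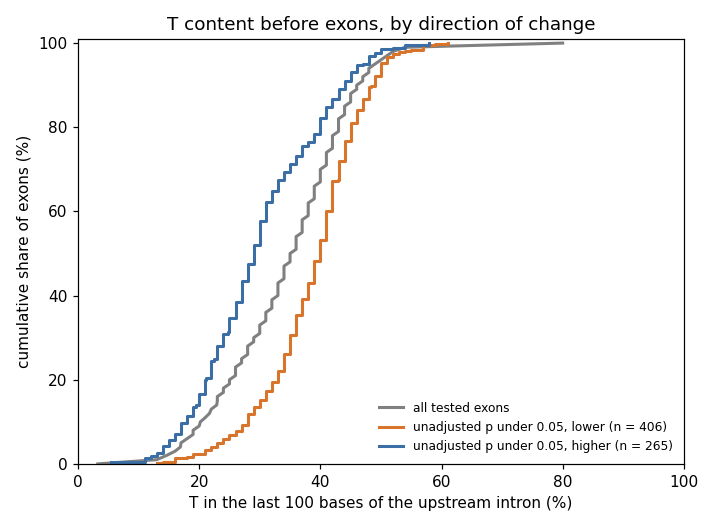
Cumulative share of exons (y axis, %) by T content of the last 100 bases of the intron before the exon (x axis, %), for all tested exons (gray) and exons with an unadjusted p under 0.05 and lower (orange, n = 406) or higher (blue, n = 265) inclusion after siFUBP1. The median is 35% for all, 40% for losses and 29% for gains.

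To ask whether this held beyond the called exons, the inclusion level was averaged per library over all exons of a class, with 1 event per exon and reads in every library (14451 exons). Over all of them the mean level was 0.8247, 0.8228 and 0.8232 in siCtrl2 and 0.8187, 0.8202 and 0.8177 in siFUBP1, and thus fell by 0.471 percentage points. The exons after introns with at most 25% T rose by 1.81 percentage points, from 0.8582, 0.8516 and 0.8496 to 0.8737, 0.8690 and 0.8710 (3001 exons). Those with over 45% T fell by 2.37 percentage points, from 0.8004, 0.7990 and 0.8036 to 0.7766, 0.7814 and 0.7738 (1721 exons). In both classes the 3 siFUBP1 libraries lay on 1 side of the 3 control libraries, in opposite directions. Lack of overlap was common, at 37 of 47 exon classes examined, the mean over all exons included. The classes between differed by 0.102 percentage points with overlap (25 to 35% T) and by -1.59 without overlap (35 to 45% T). The distance between the outer classes, taken within each library, averaged -5.21 ± 0.594 percentage points for siCtrl2 and -9.4 ± 0.55 for siFUBP1 (SD, n = 3 each; exact permutation p = 0.1, again the lowest possible, and 0.125 after Benjamini-Hochberg adjustment over 10 such contrasts).

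**Figure D4:**
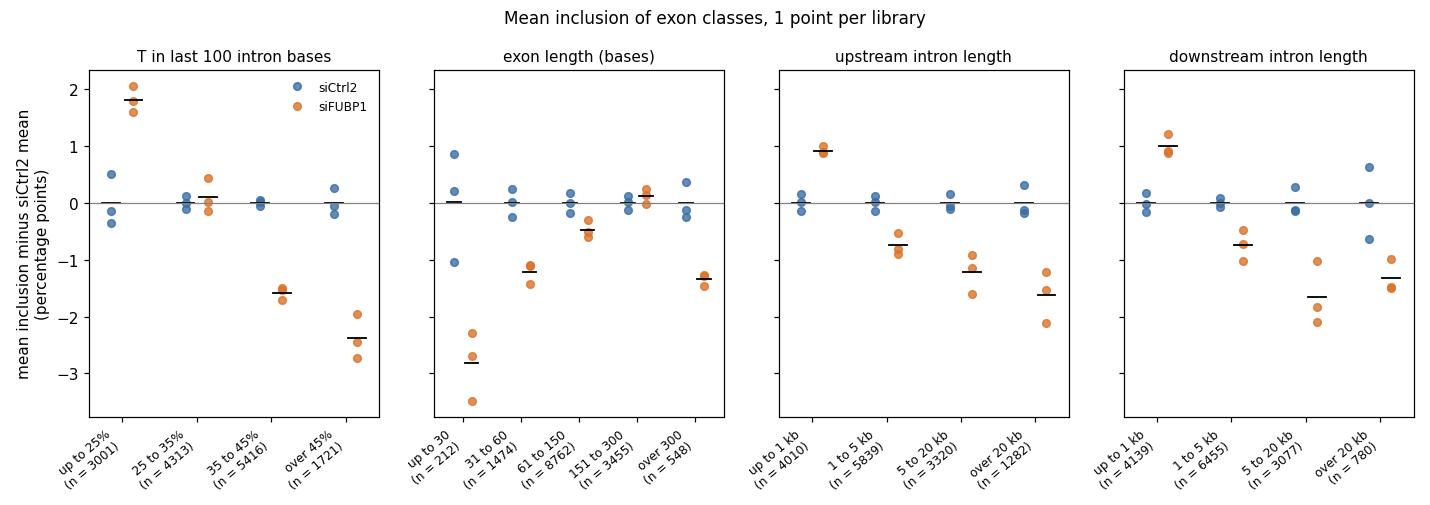
Mean inclusion of exon classes in each library, as the difference from the siCtrl2 mean of the class in percentage points (y axis), by T content before the exon, exon length and the lengths of both introns (x axis). Points are libraries and bars group means. The siFUBP1 libraries lie above the control at T up to 25% and at introns up to 1 kb. They lie below it at T over 35%, at longer introns, and at exons of up to 150 and of over 300 bases.

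Exon length classes were compared in the same way. Exons of at most 30 bases were included at 0.5576, 0.5765 and 0.5701 in siCtrl2 and at 0.5411, 0.5332 and 0.5452 in siFUBP1, so that the mean of these 212 exons fell by 2.82 percentage points. Without the called exons it fell by 2.25 percentage points, and on well-measured exons alone the change was -4.51, next to -5.29 for exons with over 45% T before them. The contrast with exons of over 150 and up to 300 bases changed by -2.94 percentage points between the groups, without overlap (exact permutation p = 0.1). Exons of 31 to 60 bases fell by 1.21 percentage points without overlap. Those of 61 to 150 bases fell by 0.469 without overlap. Those of over 150 and up to 300 bases differed by 0.121 percentage points with overlap, and those over 300 bases fell by 1.34 without overlap. Within exons of at most 60 bases, those with over 35% T before them fell by 2.44 percentage points, and those with less T differed by -0.0368 with overlap. On well-measured exons alone the changes, both without overlap, were -5.73 and -1.43 percentage points. The well-measured set was chosen on the reads of both groups together. An exon near 1 in siCtrl2 could thus enter it through skipping in siFUBP1, so changes on this set are no separate support.

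Intron length, taken as the distance to the flanking exon of the event, ran in the same order. Exons after an intron of up to 1 kb rose by 0.912 percentage points, and those after introns of 1 to 5, 5 to 20 and over 20 kb changed by -0.742, -1.22 and -1.62, each without overlap. The intron after the exon gave a rise of 0.989 at up to 1 kb and changes of -0.74, -1.66 and -1.32 at the longer classes, also without overlap. Exons between 2 introns over 5 kb fell by 1.84 percentage points (2170 exons), whereas those between 2 introns of up to 5 kb were 0.178 higher with overlap (8162 exons). Over 35% T was present before 1473 of the 2170 exons between long introns and before 3212 of the 8162 between short introns, so the classes were crossed. Between 2 short introns, exons with over 35% T fell by 1.44 percentage points and those with less T rose by 1.23, both without overlap. Between 2 long introns, exons with over 35% T fell by 2.49 without overlap and those with less T differed by -0.468 with overlap, and here the contrast of T classes overlapped between the groups (exact permutation p = 0.2).

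Base composition of the exon moved with these results. Exons with at most 40% GC fell by 2.1 percentage points and those over 60% GC rose by 1.68 (both without overlap). Among exons of at most 50% GC, 5869 had over 35% T before them and 2504 had less, and among exons of over 50% GC these numbers were 1268 and 4810. Within exons of at most 50% GC, those with over 35% T fell by 2.1 percentage points and those with less T fell by 0.746. Within exons over 50% GC, those with less T rose by 1.61, and those with more T differed by -0.285 with overlap. On well-measured exons alone, a set chosen on the reads of both groups, the class with over 50% GC and over 35% T changed by -1.99 percentage points without overlap. The contrast of T classes differed between the groups without overlap on both sides of 50% GC, by -1.35 and -1.9 percentage points. Whether recovery of GC-rich fragments differed between the groups of libraries was not tested.

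The reading frame divided the exons less. Coding exons that are multiples of 3 fell by 0.704 percentage points and other coding exons fell by 0.441, each without overlap. The contrast between these classes, -7.65 ± 0.151 percentage points for siCtrl2 and -7.91 ± 0.18 for siFUBP1 (SD, n = 3 each), overlapped between the groups (exact permutation p = 0.2). Exons found only in noncoding or decay transcripts went the other way, from 0.3485 to 0.3594 as group means over 715 exons, a rise of 1.1 percentage points without overlap. Of these exons, 38 (5.31%) had an unadjusted p under 0.05, near the 4.53% of all exons in the class means. Among the 38, 26 had higher inclusion, against 258 of 655 among all exons under that threshold. Their contrast with coding exons that are multiples of 3 went from -51.1 ± 0.246 to -49.3 ± 0.698 percentage points without overlap (SD, n = 3 each, exact permutation p = 0.1). The RBM39 decay exon was called in the opposite direction.

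The pattern by T content was then set beside the other depletions of the series on the exons that their tables share with this one. On 1300 shared exons with over 45% T before them, siFUBP1 changed the mean by -2.84 percentage points, and U3 ASO, which depletes the U3 small nucleolar RNA, by -0.459 (3 libraries against 3 of GFP ASO). On 2312 shared exons with at most 25% T, the values were 2.11 and -0.403. Both U3 ASO changes were without overlap, as was that of -0.221 at 35 to 45% T, where siFUBP1 gave -1.8. After depletion of the methyltransferase FBL (siFBL input, 2 libraries against 2 of siCtrl input), the change was -3.16 on 1041 exons with at most 25% T, where siFUBP1 gave 2.49, and -0.239 on 342 exons with over 45% T, where siFUBP1 gave -1.7. At 35 to 45% T siFBL input gave 1.4, where siFUBP1 gave -1.95. These siFBL changes were without overlap, with 2 libraries per group. On 178 shared exons of at most 30 bases, siFUBP1 gave -3.32 and U3 ASO -1.9 percentage points, the latter without overlap. On 70 such exons siFBL input gave 3.78 with overlap, where siFUBP1 gave -2.38. The depletions differ in depth and U3 ASO also in harvest time (72 h against 48 h), and the difference between them was not tested. The siFBL and siCtrl input libraries are inputs of an RNA immunoprecipitation (RIP). For these the study's methods describe no poly(A) selection, and their control is labelled siCtrl and not siCtrl2.

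The control levels of the called exons were also looked up in the other control groups. GFP ASO was harvested after 72 h, and siCtrl input has no poly(A) selection described. In GFP ASO, 28 of the 32 called events were listed, and 20 of them had a mean closer to siCtrl2 than to siFUBP1. In siCtrl input this was so at 18 of 26. Some of these had too few reads there for a level to be read, with means per library of 0.5 for RWDD3, 2.5 for LSM14A and 3 for PPP3CB. FLNA had means of 0.712 and 0.745 in these controls, next to 0.709 in siCtrl2, and CMC1 0.869 and 0.940 next to 0.864. CNN2 exon 5, with 0.977 and 0.949, and ASGR1, with 0.922 and 0.972, were higher in these controls than in siCtrl2 (0.869 and 0.861), and CRAT had 0.231 and 0.119 where siCtrl2 had no inclusion reads. The ACSL4 event with the most reads had 0.778 and 0.744 in these controls, closer to siFUBP1 (0.748) than to siCtrl2 (0.893). At these events of 4 genes the siCtrl2 level was the one that stood apart from the other controls on the side away from siFUBP1. The second called ACSL4 event differed, with 0.989 in GFP ASO and 0.985 in siCtrl input, next to 0.97 in siCtrl2 and 0.823 in siFUBP1. RAB4A exon 2, at 0.474 in GFP ASO, was also closer to siFUBP1 (0.149) than to siCtrl2 (0.964).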

How the data were processed

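Per the labels and the study's methods, polyadenylated RNA was made into stranded libraries, except that no poly(A) selection is described for the input libraries. Adapters were trimmed with Cutadapt, reads were aligned to hg38 with HISAT2, and skipped exons were counted with rMATS from junction reads only. Versions and the removal of duplicates are not given in the sources used here, so p-values treat reads as independent only up to the estimated spread. The deposited tables hold unnormalised junction read counts per library as lists, which carry no library number, and libraries are named by their place in the list. Columns of the authors' inclusion levels (6 over 3 tables), p-values and fold differences were not used, nor was the RIP table.

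Computed here were inclusion levels (reads divided by effective lengths) and a quasi-binomial F test with dispersion moderated by limma 3.58.1 in R 4.3.3, with a prior from 2089 events whose information (reads per library times included share times skipped share) was at least 5, called well-measured in the text. The shares behind the information were taken over both groups together. The test was tried on simulated data. Annotation was GENCODE release 44. Called exons were named by smallest p, 1 event per exon, and the strongest uncalled event per gene list with an unadjusted p under 0.05. Uncalled ones at TIA1, TF, BCL2L1, BRD8 and PEG3 had adjusted p of 0.812, 0.288, 0.812, 0.808 and 0.435. Members, gene lists and exon classes were chosen with earlier results of these data known. Class means used 1 event per exon and exact permutation over libraries.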

Additional observations from a re-analysis of the deposited data

How the results depend on the processing

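Against 32 events called, limma on the log2 odds called 8 without and 2 with a variance trend (4 and 2 of them shared with the 32), and 116 with the trend on the information of an event, chosen after seeing the data (15 shared, 73 lower and 43 higher). The count was 23 to 32 with another prior, other read minimums, reads scaled to length, 1 event per exon, each event's own spread where larger, or reads required in all 6 libraries. Fits without 1 library called 20 to 30 events, with 21 without siCtrl2 library 2 and 20 without siFUBP1 library 2, and the cause was not tested. In the 179 values without 1 library, no exon changed direction, apart from MAGED4B with a change of 0 without siCtrl2 library 2. The other alternatives altered the test and left the inclusion change as it was, so its direction could not differ there. Of 471 values under all these alternatives, 147 were no longer called. In all 6 fits without 1 library, 12 events stayed called, 7 lower and 5 higher.

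FUBP1 junction reads stayed below the control in every alternative. The class means listed next kept their direction under alternatives chosen after seeing the data. On well-measured exons alone the changes were larger by construction, since exons near 0 or 1 over both groups together are left out. An exon near 1 in siCtrl2 could enter this set through skipping in siFUBP1, so these values are no separate support. They were 4.2 percentage points at T up to 25%, -5.29 at T over 45%, -4.51 at exons of at most 30 bases, -3.6 between 2 introns over 5 kb and -1.37 for all exons. With at least 20 reads the T over 45% class changed by -1.98. Without 1 library the ranges were 1.64 to 2.07, -2.58 to -2.2, -3.34 to -2.4, -2.17 to -1.67 and -0.537 to -0.411. No paired analysis was possible because the lists of reads carry no library numbers. Depth limits single events: the median tested event had 48 to 83 reads per library.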
